A study of Mus musculus with 6 samples.

Results

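A set of 10 genes of the myostatin, activin receptor and TGF-β pathway were examined in gastrocnemius (Gas) muscle of wild-type (WT) and miR-92b knockout (M92KO) mice. They were the rows of the gene count table with the symbols Mstn, Tgfb1, Fst, Fstl3, Acvr2a, Acvr2b, Tgfbr2, Smad2, Smad3 and Smad7, that is 10 of 34714 symbols, and all 10 passed the filter on low counts that left 15788 genes for testing. The study used the comparison of WT and M92KO muscle to look for transcripts that differ when miR-92b is missing. Each group had 3 RNA-sequencing libraries from untreated mice 8 weeks of age on a standard diet. M92KO mice (strain C57BL/6JGpt- Mir-92bem22Cd549/Gpt) lacked miR-92b in the whole body rather than in muscle alone, and the methods describe male knockouts with age-matched C57BL/6 mice as WT controls. Whether the controls were littermates, and whether each library came from a separate mouse, is not stated outright in the sources used here, so p-values measure the spread between these libraries.

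Myostatin, encoded by Mstn, is a secreted member of the TGF-β family that is made mainly by skeletal muscle and limits muscle mass. Like the activins, it binds a type II activin receptor, which recruits and phosphorylates a type I receptor, and the type I receptor phosphorylates Smad2 and Smad3. These enter the nucleus with Smad4 and control transcription, while Smad7 blocks the receptors in a feedback loop. TGF-β1 uses the type II receptor Tgfbr2 but feeds the same Smad pair, and the secreted proteins follistatin (Fst) and follistatin-like 3 (Fstl3) trap myostatin and activins before they reach a receptor.

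MicroRNAs guide silencing complexes to transcripts mainly through bases 2 to 8, the seed, so the mature sequences of the deleted gene are shown first with the seed in capitals. Both arms of the miR-92b hairpin lie on the minus strand of chromosome 3 (GRCm38), the 3p arm at chr3:89227126-89227147 and the 5p arm at chr3:89227165-89227188. The sequences are from RefSeq, read 5′ to 3′. In the same RefSeq table, 6 mature mouse miRNAs carry the 3p seed, and miR-92a-3p and miR-25-3p are printed as examples, since they come from other genes that the knockout leaves in place. The others were miR-32-5p, miR-363-3p and miR-367-3p.
miR-92b-3p: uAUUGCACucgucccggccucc
miR-92a-3p: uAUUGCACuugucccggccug
miR-25-3p: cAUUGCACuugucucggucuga
miR-92b-5p: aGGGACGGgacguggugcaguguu
The 4 lines show that miR-92b-3p, miR-92a-3p and miR-25-3p have the same 7 seed bases and differ at a few bases outside them, whereas miR-92b-5p has a seed of its own that no other miRNA in that table shared.

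Matches to these seeds were looked for in the annotated 3′-UTRs of the members, on the transcript strand only. For the 3p arm the letters were GTGCAATA (8mer), GTGCAAT (the 7mer matching bases 2 to 8) and TGCAATA (the 7mer matching bases 2 to 7 before an A), and for the 5p arm CCGTCCCA, CCGTCCC and CGTCCCA. Each 8mer contains both 7mers, and was counted once. A match to the 3p arm was held by 14.5% of the 13674 tested genes with an annotated 3′-UTR and a match to the 5p arm by 5.92%. Of the 10 members, Fst, Tgfbr2 and Smad7 held a match to the 3p arm and Fst alone held one to the 5p arm. The matches of Fst and Tgfbr2 are printed with their surroundings, with the matching letters in capitals, because they are the matches of at least 7 letters in an inhibitor and a receptor of the pathway. Positions are those of the 6 bases opposite miRNA bases 2 to 7, all on the minus strand of GRCm38 and inside an exon that holds a 3′-UTR.
Fst, 3p arm, chr13:114452334-114452339: ctaccatgtaaatGTGCAATgtatataa
Fst, 5p arm, chr13:114452700-114452705: gaaatgtctgcttCCGTCCCctcgttct
Tgfbr2, 3p arm, chr9:116089767-116089772: aaaacactttgtttTGCAATAatgaccc
The 3p match of Fst was present in 1 annotated transcript and that of Tgfbr2 in 2. Mstn, Fstl3, Acvr2a and Smad2 held only a shorter 6-letter match (TGCAAT or CGTCCC), and Tgfb1, Acvr2b and Smad3 held none of these letters in their annotated 3′-UTRs. A match is a string of letters and was not tested as a binding site.

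The libraries held 33160508 to 48209846 counted reads, and the M92KO libraries (33160508 to 37019640) were shallower than the WT libraries (38246649 to 48209846). The count table has no row for miR-92b itself, so the deleted gene was not analysed here. Skeletal muscle fibre genes (10 markers such as Acta1 and Ckm) summed to 144221 to 161473 CPM (a gene's counts as a share of its library's total, scaled by the trimmed mean of M values) in WT and 143238 to 155511 CPM in M92KO. M92KO replicate 1 stood apart from the other M92KO libraries, with a chi-square of 57.4 per degree of freedom between its counts and those of each of them. In the quasi-likelihood test of edgeR, no gene passed an adjusted p of 0.05 (0% of 15788). Without adjustment, p was under 0.05 for 1955 genes (12.4%), of which 863 (5.47%) were higher and 1092 (6.92%) lower in M92KO, a split that became 1244 higher and 1043 lower with limma on quantile-normalized values. All 3 M92KO libraries were above all 3 WT libraries for 1385 genes (8.77%) and below them for 1513 (9.58%), and 50.0% of genes had a negative log2 fold change. These shares are the background for every count given here.

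Levels of different genes were compared per length, as CPM per kilobase of annotated exon in WT muscle (mean ± SD, n = 3). Smad3 had the highest level of the 10 members, 41.0 ± 5.04, followed by the receptor Acvr2b with 19.5 ± 1.88 and the ligand Mstn with 13.5 ± 2.08. Acvr2a stood at 9.52 ± 0.316 and Tgfbr2 at 6.58 ± 0.385. Smad7 (2.85 ± 0.185), Smad2 (2.72 ± 0.0183) and Tgfb1 (2.43 ± 0.244) formed a lower step, and the inhibitors Fst (0.652 ± 0.141) and Fstl3 (0.529 ± 0.0479) were lowest. The WT libraries overlapped between the neighbours Smad7 and Smad2, and between Fst and Fstl3, and did not overlap between any other neighbours in this order. The place of Tgfb1 depends on its length: with the longest annotated transcript in place of all exons it stood at 4.76 and above Smad7 and Smad2. In WT muscle the transcript of Smad3 was 15.1 ± 1.75 times that of Smad2 per length, and Acvr2b 2.05 ± 0.260 times Acvr2a. The SD of such a ratio does not cover the choice of length. With the longest transcript Acvr2b stood at 24.1 and Acvr2a at 9.52.

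**Figure D1:**
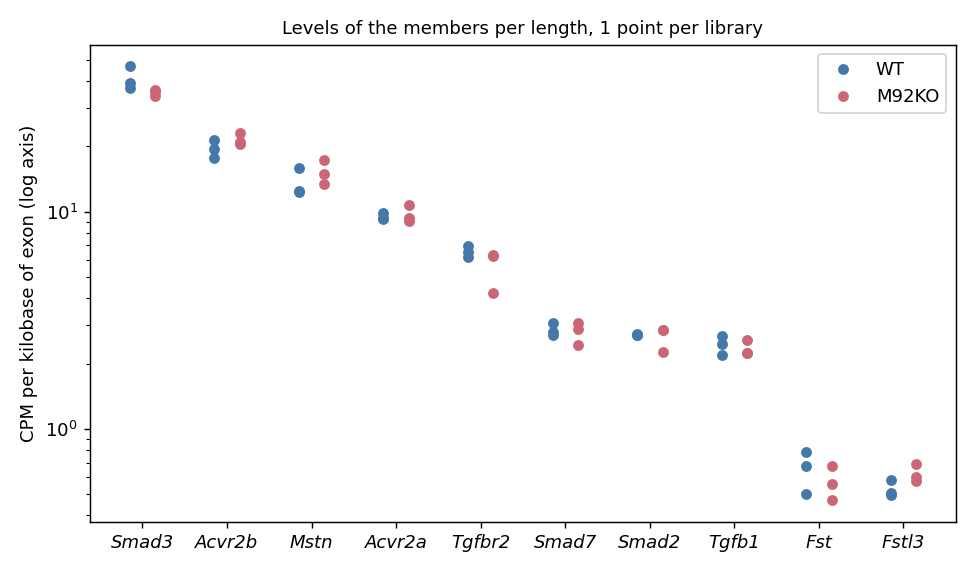
Level of each member per length, in CPM per kilobase of exon on a log axis, for the 3 WT and the 3 M92KO libraries (points). The order runs from Smad3 (41.0 in WT) to Fstl3 (0.529 in WT), and the points of the genotypes lie close together for each gene compared with the distances between most genes.

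Among the ligands, Mstn (chr1:53061640-53068079, plus strand) stood at 33.2, 33.6 and 43.1 CPM in the WT libraries and at 46.7, 40.5 and 36.4 CPM in the M92KO libraries. The groups overlapped, since WT replicate 3 was above 2 of the M92KO libraries. Mean levels were 36.6 ± 5.61 and 41.2 ± 5.20 CPM (± SD, n = 3 libraries each), and the fitted log2 fold change was 0.17 (SE 0.13) with an adjusted p of 0.650 by edgeR. The 95% interval, -0.12 to 0.46 on the log2 scale, corresponds to folds of 0.920 to 1.37, so these libraries leave room for values on either side of 1. Without WT replicate 3, the log2 fold change of Mstn was 0.30 (unadjusted p = 0.0318 by edgeR), and without M92KO replicate 1 it was 0.067. Tgfb1 (chr7:25687002-25705077, plus strand), the TGF-β ligand most studied in fibrosis, stood at 12.3, 13.4 and 10.98 CPM in WT and 11.3, 11.3 and 12.97 CPM in M92KO. Its groups lay over each other, with means of 12.3 ± 1.23 and 11.9 ± 0.969 CPM. The log2 fold change was -0.05 (SE 0.11, 95% interval -0.30 to 0.21, adjusted p = 0.907 by edgeR). Per length of all exons, Mstn exceeded Tgfb1 5.67 ± 1.44 times in WT muscle and 6.54 ± 1.26 times in M92KO muscle. These ratios overlapped between the groups. Their SD does not cover the choice of length. With the longest transcript the WT levels were 13.5 for Mstn and 4.76 for Tgfb1, a smaller ratio.

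The secreted inhibitors had the lowest counts of all members, so their values carry the largest counting error. Fst (chr13:114452290-114458951, minus strand) stood at 3.59, 3.08 and 2.30 CPM in WT and 2.16, 2.57 and 3.08 CPM in M92KO. M92KO replicate 1 was under all others and M92KO replicate 3 reached the level of WT replicate 2, so the groups overlapped. The means were 2.99 ± 0.649 and 2.60 ± 0.464 CPM, with a log2 fold change of -0.20 (SE 0.22, 95% interval -0.69 to 0.30, adjusted p = 0.765 by edgeR). Leaving out single libraries moved the log2 fold change of Fst between -0.36 (without WT replicate 3) and -0.044 (without WT replicate 1). Fst, the member with a seed match to both arms of miR-92b, had no detectable difference at this depth, and its interval was the widest of the 10. Fstl3 (chr10:79777272-79782630, plus strand) stood at 1.43, 1.22 and 1.24 CPM in WT and 1.47, 1.68 and 1.40 CPM in M92KO. WT replicate 1 lay above the lowest M92KO library and under the others. The means were 1.29 ± 0.117 and 1.52 ± 0.144 CPM and the log2 fold change was 0.23 (SE 0.20, 95% interval -0.23 to 0.68, adjusted p = 0.704 by edgeR). With single libraries left out it ran from 0.15 to 0.30, and limma on quantile-normalized values gave 0.28 (unadjusted p = 0.0492). These values rest on 47 to 66 reads per library, and the exact Poisson 95% interval of the lowest, 47 reads, was 34.5 to 62.5 reads, which covers counting error only. Exons of Fst and of Fstl3 overlap a gene on the opposite strand (Gm47040 and Prss57), and whether the counting used strand is not given in the sources used here, so reads of the overlapping genes cannot be told apart. The ratio of Mstn to Fst per length was 21.97 ± 8.57 in WT and 27.8 ± 8.39 in M92KO, again overlapping. It also depends on the length used, since Fst stood at 1.02 in WT with the longest transcript and 0.652 with all exons.

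**Figure D2:**
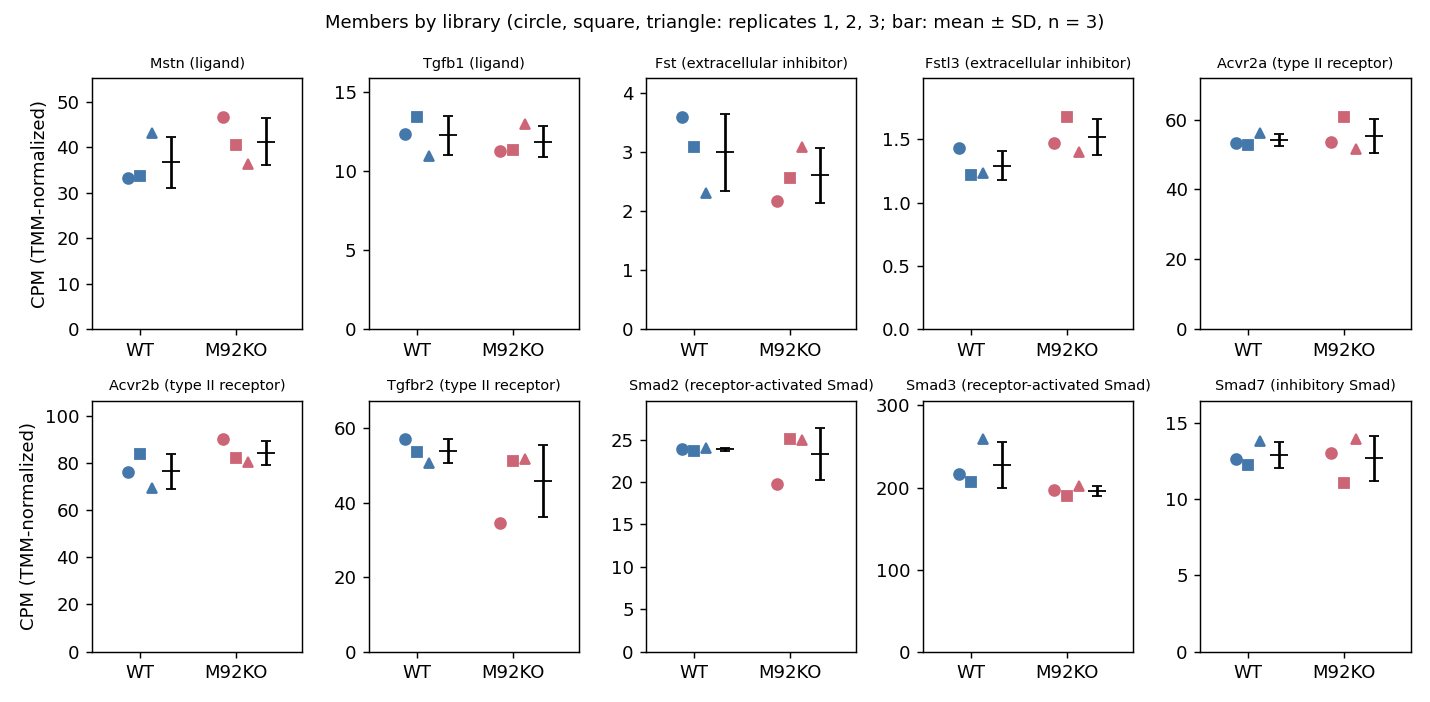
CPM of each member in every library (circles, squares and triangles are replicates 1, 2 and 3; each panel has its own axis from 0), with the mean ± SD of each group (n = 3). Smad3 is the only panel in which the 3 M92KO points all lie below the 3 WT points, and the low M92KO point of Tgfbr2 and of Smad2 is replicate 1.

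The type II receptors were among the better measured members, with 1200 to 3523 reads per library. Acvr2a (chr2:48814109-48903269, plus strand), the receptor for activins that also takes up myostatin, stood at 53.4, 52.8 and 56.2 CPM in WT and 53.5, 60.8 and 51.6 CPM in M92KO. The highest and the lowest value both came from M92KO libraries. Its log2 fold change of 0.03 (SE 0.079, adjusted p = 0.915 by edgeR) had the narrowest interval of the members, -0.15 to 0.21, or folds of 0.902 to 1.16. An exon of Acvr2a overlaps Orc4 on the other strand. Acvr2b (chr9:119402118-119434995, plus strand), the type II receptor through which myostatin mainly signals in muscle, stood at 76.3, 84.0 and 69.2 CPM in WT and 90.1, 82.2 and 80.3 CPM in M92KO. WT replicate 2 lay above 2 of the M92KO libraries, so the groups overlapped. The means were 76.5 ± 7.40 and 84.2 ± 5.18 CPM and the log2 fold change was 0.14 (SE 0.087, 95% interval -0.06 to 0.34, adjusted p = 0.576 by edgeR). It was 0.071 without WT replicate 3 and 0.21 without WT replicate 2. The ratio of Acvr2b to Acvr2a per length was 2.22 ± 0.243 in M92KO and overlapped that of WT.

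Tgfbr2 (chr9:116084293-116175360, minus strand), the type II receptor of the TGF-β ligands, was the receptor that varied most between libraries. It stood at 57.1, 53.7 and 50.8 CPM in WT and 34.6, 51.1 and 51.6 CPM in M92KO. Only M92KO replicate 1 was far from the rest, while the other M92KO libraries lay within the WT range. The means were 53.9 ± 3.15 and 45.8 ± 9.71 CPM, with a log2 fold change of -0.24 (SE 0.14, 95% interval -0.56 to 0.09, adjusted p = 0.564 by edgeR). Without M92KO replicate 1 the log2 fold change was -0.07. The same library had the lowest summed fibroblast markers (1918 CPM, against 2407 and 2439 in the other M92KO libraries) and leukocyte markers (90.9 CPM, against 117 and 128). Other lists did not single it out. Endothelial sums were 1151, 1336 and 1131 CPM in M92KO replicates 1, 2 and 3. Tendon, fat cell and satellite cell sums were also lowest in M92KO replicate 3. Schwann cell sums were 135.0 CPM in M92KO replicate 1 and 135.7 CPM in replicate 3. The part of any of these cells in the value of Tgfbr2 was not tested. In bulk muscle, fewer cells of a type and less RNA per cell cannot be told apart.

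Of the Smads that carry the signal, Smad3 was the member whose groups did not overlap. Smad3 (chr9:63646767-63757994, minus strand) stood at 215.9, 206.7 and 259 CPM in WT and at 196.9, 189.9 and 201.6 CPM in M92KO. Every M92KO library was under every WT library, although the nearest pair, 201.6 and 206.7 CPM, were close. The means were 227 ± 27.9 and 196 ± 5.92 CPM, and the log2 fold change was -0.21 (SE 0.092), a fold of 0.863 with a 95% interval of 0.746 to 0.999. The unadjusted p was 0.0483 and the adjusted p 0.399 by edgeR, so Smad3 did not pass the test over all genes. With 9.58% of all genes in the same order and 6.92% lower at an unadjusted p under 0.05, 1 member of 10 is near the background. The WT mean leaned on WT replicate 3, the highest library, without which the log2 fold change was -0.11 (unadjusted p = 0.210 by edgeR). Over the fits that each left out 1 library it ran from -0.28 to -0.11, and over all 13 alternative fits it stayed negative, with an unadjusted p under 0.05 in 5 of them.

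Smad2 (ENSMUSG00000024563), the partner of Smad3 at the same receptors, stood at 23.9, 23.7 and 24.0 CPM in WT and 19.8, 25.1 and 25.01 CPM in M92KO. The WT libraries were almost level, M92KO replicate 1 was below them and the other M92KO libraries above them. The log2 fold change was -0.04 (SE 0.10, 95% interval -0.27 to 0.20, adjusted p = 0.925 by edgeR). Smad7 (ENSMUSG00000025880), the inhibitory Smad that the pathway itself switches on, stood at 12.6, 12.2 and 13.8 CPM in WT and 13.02, 11.1 and 13.9 CPM in M92KO. Both the highest and the lowest library were M92KO, and the log2 fold change was -0.02 (SE 0.11, 95% interval -0.28 to 0.23, adjusted p = 0.954 by edgeR). Per length, Smad3 was 13.5 ± 2.004 times Smad2 in M92KO and 12.7 ± 1.15 times Smad7, against 14.3 ± 0.812 times Smad7 in WT, and the groups overlapped in both ratios.

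Across the 10 members, 6 had a negative and the others a positive log2 fold change, the median was -0.03, and the median over all genes tested was -8.07e-05. None was higher and 1 lower at an unadjusted p under 0.05. The exact two-sided permutation test over the 6 libraries gave p-values from 0.1 (Smad3) to 1.0 (Smad2), where 0.1 is the smallest that 3 against 3 libraries allow. The 3 members with a 3p seed match, Fst, Tgfbr2 and Smad7, had log2 fold changes of -0.20, -0.24 and -0.02, each with an interval that included 0. The directions of Tgfb1, Acvr2a, Smad2 and Smad7 were not stable, since each had at least 1 alternative fit of the opposite sign, while those of Mstn, Fst, Fstl3, Acvr2b, Tgfbr2 and Smad3 held in all 13.

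**Figure D3:**
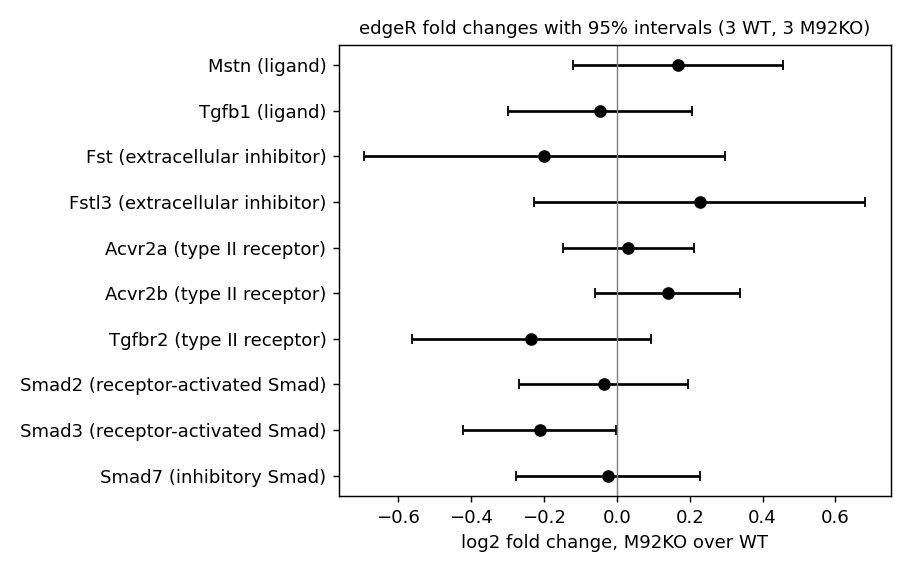
Log2 fold change (M92KO over WT) of each member with its 95% interval from edgeR, ordered by role. The intervals of 9 members include 0, and that of Smad3 ends just under it (-0.42 to -0.002).

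The wider pathway was described with a list of 106 genes in 6 roles, which includes the members, of which 99 were tested. None passed an adjusted p of 0.05. The list was chosen with earlier results of these data known, so its shares below describe the list and are no test of the pathway. At an unadjusted p under 0.05, 0 were higher and 18 lower in M92KO, 18.2% of the list against 6.92% of all genes tested. All 3 M92KO libraries were below WT for 17 genes (17.2% against 9.58%) and above WT for 1, Snai1. A negative log2 fold change was found for 69 of the 99 genes (69.7% against 50.0%), and the median was -0.09. The count depends on single libraries and on the method, since there were 9 lower and 3 higher without WT replicate 3, 15 lower and 6 higher without M92KO replicate 1, 11 lower without M92KO replicate 2, and 8 lower and 1 higher with limma on quantile-normalized values.

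Among the ligands, 11 of 15 tested genes had a negative log2 fold change (73.3% against 50.0% of all genes tested). Bmp2, a bone morphogenetic protein, stood at 3.94, 5.59 and 7.29 CPM in WT and 2.33, 3.36 and 3.42 CPM in M92KO (log2 fold change -0.89, adjusted p = 0.235 by edgeR), with no overlap. Tgfb3 also had M92KO libraries below all WT libraries, with means of 41.3 ± 1.48 and 36.5 ± 2.02 CPM (log2 fold change -0.18, adjusted p = 0.362 by edgeR). Bmp7 was near 1 CPM in WT and at 0.617 CPM in M92KO (log2 fold change -0.69, adjusted p = 0.453 by edgeR), and its log2 fold change was -0.43 without WT replicate 2. Among the extracellular binders and processing genes, 13 of 22 were lower in value (59.1% against 50.0% of all genes tested). Of these, 4 had an unadjusted p under 0.05 (18.2% of the 22 against 6.92%). Decorin (Dcn), a collagen-binding proteoglycan that also binds TGF-β, had means of 406.7 ± 11.8 and 322.7 ± 28.1 CPM (log2 fold change -0.33, adjusted p = 0.188 by edgeR). Ltbp4, which stores latent TGF-β in the matrix, had 175 ± 9.19 and 150.0 ± 5.99 CPM (log2 fold change -0.22, adjusted p = 0.269 by edgeR), and neither gene overlapped between groups. Thbs1, a matrix protein able to activate latent TGF-β, spanned 16.2 to 94.8 CPM within WT alone and overlapped with the M92KO libraries (8.06 to 26.6 CPM). Its log2 fold change of -1.43 (adjusted p = 0.390 by edgeR) was -0.74 without WT replicate 3.

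Of the receptors, 11 of 16 had a negative log2 fold change (68.8% against 50.0% of all genes tested). The lowest p-values were those of the type I receptors Bmpr1a, Acvrl1 and Bmpr1b. Other type I receptors did not share this: Acvr1b, Tgfbr1 and Acvr1 had log2 fold changes of -0.10, 0.03 and 0.07 (adjusted p = 0.775, 0.918 and 0.879 by edgeR). Bmpr1a, a type I BMP receptor, stood at 125 ± 3.90 CPM in WT and 109 ± 7.59 CPM in M92KO without overlap (log2 fold change -0.20, adjusted p = 0.336 by edgeR). Acvrl1, the type I receptor of endothelial cells, had 31.9 ± 2.45 and 26.9 ± 3.06 CPM (log2 fold change -0.24, adjusted p = 0.374 by edgeR). Bmpr1b had a log2 fold change of -0.25 (adjusted p = 0.531 by edgeR), which was -0.13 without M92KO replicate 1. Of the 8 Smads, 7 had a negative log2 fold change (87.5% against 50.0% of all genes tested). These include the members Smad2, Smad3 and Smad7. Smad2 (-0.04), Smad6 (-0.05) and Smad7 (-0.02) were near 0, and Smad2 and Smad7 changed sign in alternative fits. Smad1, which carries BMP signals, stood at 20.3, 23.3 and 23.4 CPM in WT and 18.5, 17.6 and 17.4 CPM in M92KO, with no overlap (log2 fold change -0.32, adjusted p = 0.215 by edgeR). Smad4, the partner that all signalling Smads share, differed by -0.07 and Smad5 by -0.08 on the log2 scale (adjusted p = 0.703 and 0.743 by edgeR), and without M92KO replicate 1 these values were -0.046 and -0.0083.

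The Smad regulators were evenly divided, with 9 of 16 negative and a median log2 fold change of -0.02. Ski, a repressor that binds Smad3 and Smad4, stood at 67.9 ± 3.26 CPM in WT and 56.4 ± 5.83 CPM in M92KO without overlap (log2 fold change -0.27, adjusted p = 0.283 by edgeR). Nedd4l, a ubiquitin ligase for activated Smads, had a log2 fold change of 0.23 and Tgif1, a corepressor, one of -0.29 (adjusted p = 0.460 and 0.588 by edgeR). Single libraries carried much of both values, since Nedd4l stood at 0.10 without M92KO replicate 1 and Tgif1 at -0.035 without WT replicate 3 and -0.44 without WT replicate 1. Of the targets, 18 of 22 had a negative log2 fold change (81.8% against 50.0% of all genes tested), with a median of -0.24. At an unadjusted p under 0.05, 7 were lower (31.8% against 6.92% of all genes tested), the largest such share of the 6 roles. The target list does not separate genes that the pathway induces from genes it represses, so this count does not measure pathway activity. Fbxo30, a ubiquitin ligase gene repressed by BMP signalling in muscle, had means of 38.7 ± 1.61 and 32.5 ± 2.39 CPM (log2 fold change -0.25, adjusted p = 0.261 by edgeR). The collagen genes Col1a1 and Col1a2 had log2 fold changes of -0.55 and -0.53 (adjusted p = 0.328 and 0.283 by edgeR), and these collagen genes and Fbxo30 had all M92KO libraries below WT. WT replicate 1 was the highest library for both collagens, and without it the log2 fold changes were -0.27 for Col1a1 (unadjusted p = 0.0604 by edgeR) and -0.29 for Col1a2. The other targets with an unadjusted p under 0.05, named after their values were seen, were Ccn1 (-1.32), Id1 (-0.59), Cdkn1a (-0.82) and Junb (-1.67). Their groups overlapped and WT replicate 3 was the highest library for each. Without that library the log2 fold changes were -0.51, -0.42, -0.44 and -0.43, and none had an unadjusted p under 0.05. Junb, an immediate early gene, stood at 13.1, 33.5 and 117.9 CPM in WT and 19.98, 19.5 and 12.4 CPM in M92KO.

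**Figure D4:**
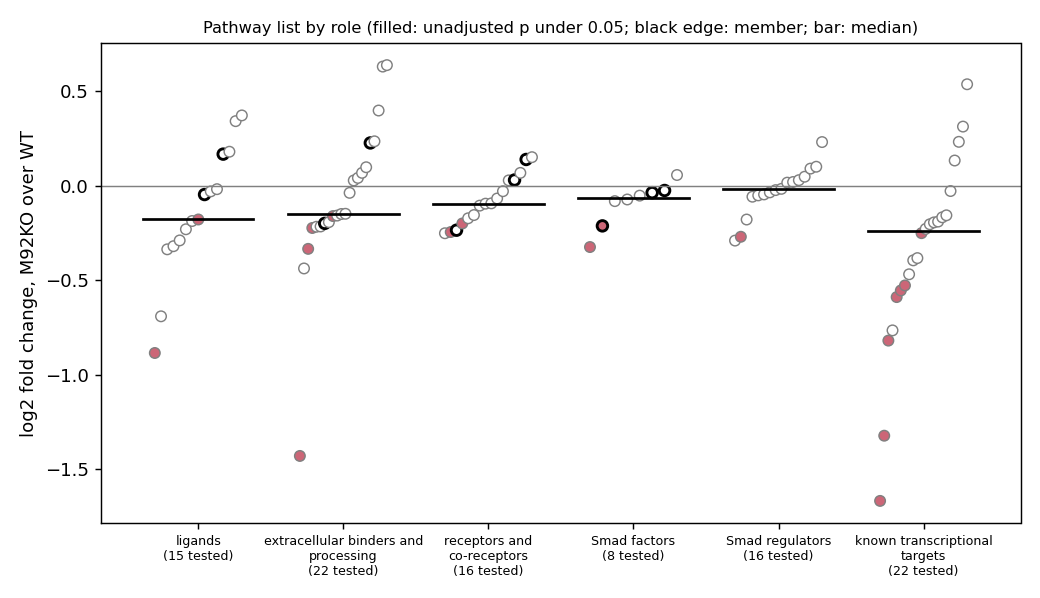
Log2 fold change (M92KO over WT) of the 99 tested genes of the pathway list, 1 point per gene, by role, with the median of each role as a bar and members edged in black. Medians run from -0.02 for the Smad regulators to -0.24 for the targets, and the filled points, genes with an unadjusted p under 0.05, are all below 0.

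Marker lists of other cell types were described beside the pathway list. At an unadjusted p under 0.05, 6.92% of all genes tested were lower and 5.47% higher in M92KO. Summed fibroblast markers ran from 2458 to 3235 CPM in WT and from 1918 to 2439 CPM in M92KO. The groups did not overlap, although the nearest libraries, 2439 and 2458 CPM, were close. Of the 12 fibroblast markers, 8 had a negative log2 fold change, with 3 lower and 1 higher at an unadjusted p under 0.05. Tendon markers ran from 203 to 316 CPM in WT and from 153 to 177 CPM in M92KO, and all 9 had a negative log2 fold change, 4 of them with an unadjusted p under 0.05. The tendon list includes Egr1, and the WT sums of the list were 203, 244 and 316 CPM in replicates 1, 2 and 3. WT replicate 3 was also the highest library for Junb. Any link between Egr1, the tendon sums and Junb was not tested. The summed values of the remaining lists overlapped between groups: endothelial markers at 1281 to 1359 and 1131 to 1336 CPM, leukocyte at 118 to 130 and 90.9 to 128 CPM, satellite cell at 128 to 166 and 125 to 136 CPM, fat cell at 744 to 943 and 653 to 788 CPM, Schwann cell at 136 to 185 and 135 to 142 CPM, and red cell at 74.0 to 223 and 143 to 336 CPM. Single markers in these lists also had an unadjusted p under 0.05: 4 of 8 Schwann cell markers were lower (7 of 8 had a negative log2 fold change), 3 of 8 satellite cell markers were lower and 1 higher, and 2 endothelial, 1 leukocyte and 1 fat cell marker were lower. The log2 fold change was negative for 8 of 10 endothelial and 8 of 10 leukocyte markers. It was negative for 3 of 8 satellite cell, 1 of 7 tested fat cell and 0 of 5 red cell markers. No marker was at 0 in all libraries, and the tendon gene Mkx and the fat cell genes Plin1, Lep, Retn and Cidec averaged under 1 CPM. Dcn, Col1a1, Col1a2 and Col3a1 are in both the pathway and the fibroblast list, and without them 15 of 95 pathway genes were lower and 0 higher at an unadjusted p under 0.05, with a median of -0.08. The part of these other cell types in the pathway values was not tested.

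**Figure D5:**
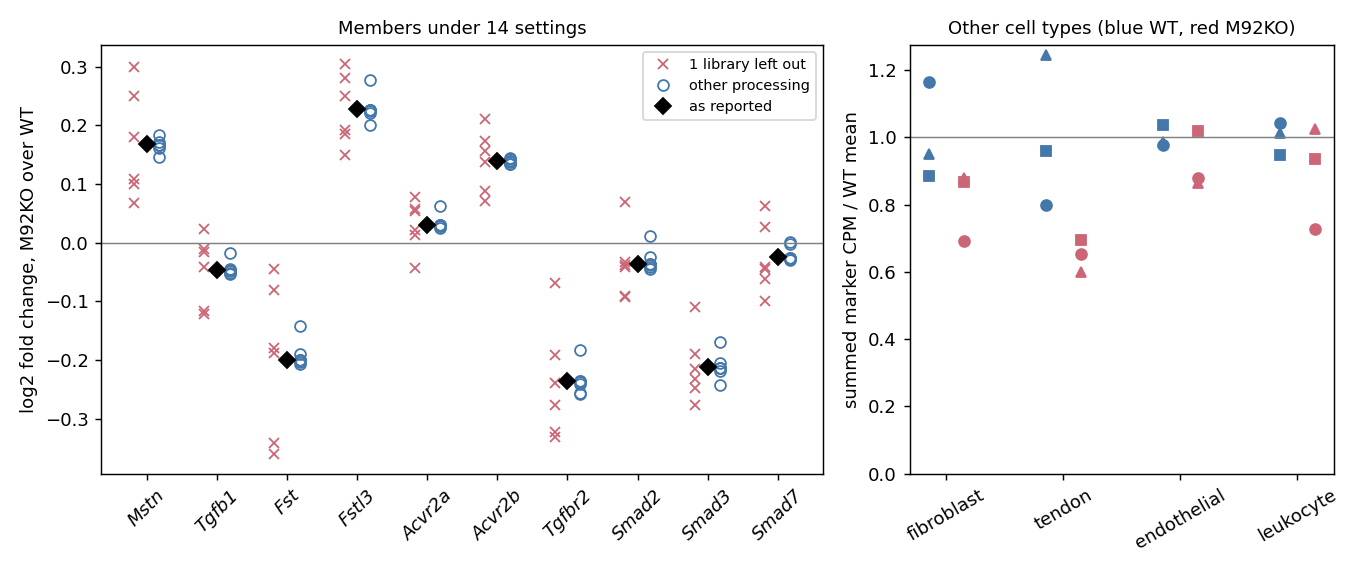
Left, log2 fold change (M92KO over WT) of each member as reported (diamonds), with 1 library left out (crosses) and under other processing (circles). Right, summed CPM of fibroblast, tendon, endothelial and leukocyte markers in each library, divided by the WT mean (blue WT, red M92KO; circle, square and triangle are replicates 1, 2 and 3). Points of Tgfb1, Acvr2a, Smad2 and Smad7 lie on both sides of 0, and the M92KO libraries lie below the WT libraries for fibroblast and tendon markers.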

How the data were processed

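Gas muscle RNA gave 3 WT and 3 M92KO libraries, grouped by the genotype in the labels. The authors deposited whole-number gene counts per library, not normalized. The submitters' processing notes name GRCm38 and mm10, and the aligner, counter and strand setting are not given in the sources used here. From the counts, edgeR 4.0.16 (R 4.3.3) was fitted over 15788 genes (filterByExpr, minimum count 10, minimum total 15, TMM, quasi-likelihood test, Benjamini-Hochberg adjustment). A count of 0 allows up to 3 counts, or 0.0629 to 0.0916 CPM. The edgeR fit was run on simulated counts with changes larger than those of any member, so it was not tested at the size of the members' changes. Alternatives were DESeq2 1.42.0 size factors and Wald test, no filter, at least 10 counts in every library, the limma 3.58.1 steps of the study's methods (log2 of the value + 1), the replicate number as a block, GC and length offsets, leaving out each library, other seed definitions, and, chosen after seeing the data, the longest transcript's length and the list without 4 fibroblast markers. Named were all members, the 3 other genes of lowest p in each of the 6 roles, and the 3 genes most alike to Mstn and to Tgfb1. Members and lists were chosen with earlier results of these data known. Lengths and 3′-UTRs came from GENCODE M21, to which 25731 symbols matched directly and 419 by a synonym.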

Additional observations from a re-analysis of the deposited data

How the results depend on the processing

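The 3 libraries per group set the limits: the median standard error of the members was 0.11 on the log2 scale, and Fst and Fstl3 rest on few reads. For all genes at an adjusted p under 0.05 (0 in the reported fit), there were 322 with the DESeq2 Wald test, 6 without a filter, 42 with limma on quantile-normalized values, and 0 to 401 when single libraries were left out, 401 without M92KO replicate 1. At an unadjusted p under 0.05, leaving out single libraries gave 531 to 1545 genes higher (1545 without M92KO replicate 1) and 691 to 1439 lower. The members with an unadjusted p under 0.05 (1 reported) were 0 with GC and length offsets and 0 to 1 with single libraries left out. The member was not always Smad3: without WT replicate 3 it was Mstn, and with limma it was Fstl3, where Smad3 had an unadjusted p of 0.0506. For the pathway list, genes higher (0 reported) were 1 with the DESeq2 Wald test, 1 without a filter, 1 with limma, 3 with GC and length offsets and 0 to 6 with single libraries left out, and genes lower (18 reported) were 8 with limma and 9 to 17 with single libraries left out. With 8mer seed matches only, 0 members held a match, where 3.78% of the 13674 tested genes with an annotated 3′-UTR held one. The direction reversed for Smad2 with GC and length offsets (0.011), for Smad7 with limma (0.0019), and with single libraries left out for Tgfb1 (-0.12 to 0.024), Acvr2a (-0.043 to 0.078), Smad2 (-0.093 to 0.069) and Smad7 (-0.10 to 0.063). The cause of these shifts was not tested. Same-numbered libraries had correlations of 0.08, 0.04 and 0.02, and 5 of 6 libraries correlated best with their own number. Part of that count rests on near ties. M92KO replicate 2 had correlations of 0.0376 with WT replicate 2 and 0.0365 with WT replicate 3. M92KO replicate 3 had 0.0151 with WT replicate 3 and 0.0107 with WT replicate 2. These correlations were small, and they do not settle whether the replicate numbers of the labels pair the libraries. With the replicate number as a block, 2 genes had an adjusted p under 0.05, 0 members and 19 pathway genes (lower) had an unadjusted p under 0.05, and Smad3 had a log2 fold change of -0.21 (adjusted p = 0.468 by edgeR).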

Other observations

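The genes whose centred log2 CPM over the 6 libraries lay nearest to that of Mstn were Hey2 (root mean square distance 0.051), Aebp1 (0.051) and Ppp1r15a (0.054). Those nearest to Tgfb1 were Acadm (0.020), Zfp710 (0.027) and Phldb1 (0.028). These distances describe the shared pattern over 6 libraries and were not tested. Of the pathway list, 27 genes held a 7mer or 8mer match to the miR-92b-3p seed, of which 19 had a negative log2 fold change and the median was -0.15. Of these 27, 4 were lower and 0 higher at an unadjusted p under 0.05. Of the 72 without such a match, 50 were negative, 14 were lower and 0 higher at an unadjusted p under 0.05 and the median was -0.09. Among the 13674 tested genes with an annotated 3′-UTR, 1980 held a match, of which 1071 were negative and the median was -0.02. Of these 1980, 192 were lower and 96 higher at an unadjusted p under 0.05. Of the 11694 without one, 5814 were negative, 819 were lower and 656 higher at an unadjusted p under 0.05 and the median was 0.0013.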
